A study of Rattus norvegicus with 9 samples.

Results

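The genes described here are 4 globin genes, Hbe1, Hbb, Hbg1 and Hbz, and Alas2, the erythroid enzyme that starts heme synthesis. They were chosen by symbol, and because earlier results of these same arrays placed them among the genes lower in culture. Each of the 5 genes had 1 probe set listed with its symbol alone, out of 12783 such probe sets for 10411 genes. Expression was measured on 9 Affymetrix rat arrays. 6 carried RNA of MesPC, primary cultures of dissociated ventral midbrain cells kept for 9 days in vitro, and 3 carried RNA of MesE11, uncultured ventral midbrain of embryonic day 11. All tissue came from the embryos of 4 pregnant rats, mixed into 3 groups. The tissue samples were pools, and the labels put the cultures in duplicate and speak of 3 arrays of independent culture samples, so the 6 culture arrays may not be 6 independent cultures. No label names a strain, a genotype or a treatment. Values are log2 intensities that the authors made with RMA, and differences are MesPC minus MesE11. The number of arrays limits the precision.

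Hemoglobin joins alpha-like and beta-like globin chains, each of which holds a heme, the iron-bearing ring that binds oxygen. The first red cells of a rodent embryo come from the yolk sac, circulate with a nucleus and carry embryonic chains: epsilon, encoded by Hbe1, is beta-like, and zeta, encoded by Hbz, is alpha-like. Heme is built from glycine and succinyl-CoA in mitochondria and cytosol. Its first step limits the rate and is run by Alas2 in erythroid cells and by Alas1 in other cells.

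In the RefSeq table of the assembly GRCr8, Hbb, Hbg1 and Hbe1 lie in a row of 8 protein-coding beta-like genes on chromosome 1, in the order Hbb-bs, Hbb-b1, Hbbl1, Hbb-b2, Hbb, Hbg1, Hbe2 and Hbe1. Hbz ends a row of 5 alpha-like genes on chromosome 10. A probe set of a gene in such a row may also bind transcripts of its neighbours, which was not tested. RefSeq lists Hbb-y as an older name of both Hbe1 and Hbg1, and Hbe1 as an older name of Hbg1.

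RefSeq's promoter table for GRCr8 matched 4 of the 5 genes, all but Hbg1. Below are the 250 bases before the start that it gives for the 3 globin genes, shown because these are the start regions of the globins whose values follow. The windows are chr1:167696281-167696530 for Hbe1, chr1:167663722-167663971 for Hbb and chr10:15849758-15850007 for Hbz, all on the minus strand and written 5′ to 3′. Capitals mark, on either strand, CCAAT (the CCAAT box), CACCC (the CACCC box), ATAAAA (the ATA box) and GATA sites, which are AGATAA and, as the second spelling, AGATAG, or the same with T as first letter. The annotated span of Hbe1, which holds predicted transcripts, reaches 175811 bases further upstream than the start used, so its window lies inside that span. The Alas2 window of the table also lies inside the annotated gene, with its start 4800 bases from the outermost end. It is not shown, as only globin windows are printed.
Hbe1: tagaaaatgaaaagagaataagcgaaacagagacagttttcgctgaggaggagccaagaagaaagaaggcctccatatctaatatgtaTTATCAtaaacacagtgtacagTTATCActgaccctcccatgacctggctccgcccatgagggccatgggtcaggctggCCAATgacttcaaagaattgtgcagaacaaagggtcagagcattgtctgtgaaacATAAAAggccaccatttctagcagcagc
Hbb: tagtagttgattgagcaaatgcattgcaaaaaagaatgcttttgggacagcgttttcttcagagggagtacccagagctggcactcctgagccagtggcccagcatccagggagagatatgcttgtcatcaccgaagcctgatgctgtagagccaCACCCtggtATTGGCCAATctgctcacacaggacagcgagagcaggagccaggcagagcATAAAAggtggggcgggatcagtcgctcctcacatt
Hbz: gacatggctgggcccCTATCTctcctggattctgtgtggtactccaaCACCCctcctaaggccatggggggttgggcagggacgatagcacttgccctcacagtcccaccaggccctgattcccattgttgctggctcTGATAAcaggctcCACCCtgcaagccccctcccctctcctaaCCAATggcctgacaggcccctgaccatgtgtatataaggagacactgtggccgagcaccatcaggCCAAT

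All 3 windows held a CCAAT box, at bases −83 to −79 before the start in Hbe1, −81 to −77 in Hbb and −70 to −66 in Hbz. Hbb and Hbz also held a match on the minus strand or nearer the start, at −86 to −82 and at −5 to −1. CCAAT was present in 34.0% of all 33465 windows of this length. CACCC stood at −95 to −91 in Hbb and at −203 to −199 and −99 to −95 in Hbz (49.2% of all windows). GATA sites stood at −162 to −157 and −140 to −135 in Hbe1 and at −235 to −230 and −112 to −107 in Hbz (27.0% of all windows). ATAAAA stood at −28 to −23 in Hbe1 and −36 to −31 in Hbb (18.6% of all windows). The Hbb and Hbz windows held both CCAAT and CACCC, as did 16.1% of all windows. No marked motifs overlapped, and matches of such short strings are a description, not sites shown to be bound.

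The beta-like Hbe1, Hbb and Hbg1 were all lower in culture than in embryonic midbrain. Hbe1 read 7.42, 7.32, 7.29, 6.31, 6.75 and 6.54 in MesPC arrays 1 to 6, against 12.96, 12.91 and 12.84 in MesE11 arrays 1 to 3. Its mean was 6.94 ± 0.47 in culture (SD, n = 6) and 12.91 ± 0.06 in tissue (SD, n = 3), a difference of −5.97 or 62.5-fold. The groups lay far apart, and the highest culture values came from arrays 1 to 3. In bulk RNA, fewer erythroid cells and less globin RNA per cell cannot be told apart.

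Hbb, which encodes an adult beta chain, read 8.57, 8.63, 8.54, 8.33, 8.21 and 8.49 in MesPC, against 14.07, 13.95 and 13.72 in MesE11. The means were 8.46 ± 0.16 and 13.91 ± 0.18 (SD), which differ by −5.45 or 43.8-fold. Its probe set has the suffix _x_at, by which Affymetrix marks probes that can also bind other sequences. Of the 5 genes, Hbb alone had every culture value above the 4.80 to 6.68 spanned by 27 control probe sets for bacterial genes.

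Hbg1, named after gamma globin, a fetal chain in humans, read 6.02, 6.13, 6.11, 5.75, 5.89 and 6.06 in MesPC, against 9.56, 9.29 and 9.09 in MesE11. The means were 5.99 ± 0.15 and 9.31 ± 0.24 (SD), which differ by −3.32 or 9.99-fold. On all 6 culture arrays it read no higher than the brightest bacterial control, so the fall is a lower bound if they are background.

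The alpha-like Hbz read 6.71, 6.86, 6.84, 6.53, 6.67 and 6.75 in MesPC, against 9.93, 9.61 and 10.11 in MesE11. The means were 6.73 ± 0.12 and 9.88 ± 0.25 (SD), which differ by −3.16 or 8.93-fold. Here 2 of 6 culture values were at or below the highest bacterial control, as were 2 of 6 for Hbe1.

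Alas2 read 6.76, 6.85, 6.85, 6.57, 6.54 and 6.66 in MesPC, against 9.54, 8.76 and 8.27 in MesE11. The means were 6.70 ± 0.14 and 8.86 ± 0.64 (SD), which differ by −2.15 or 4.45-fold. The groups did not overlap, and 3 of 6 culture values were at or below the highest bacterial control. For all 5 genes the 6 culture values lay below the 3 tissue values, as they did for 23.3% of all 15866 probe sets. The genes were chosen on this contrast, so nothing is read from that count and no test of it is given.

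**Figure D1:**
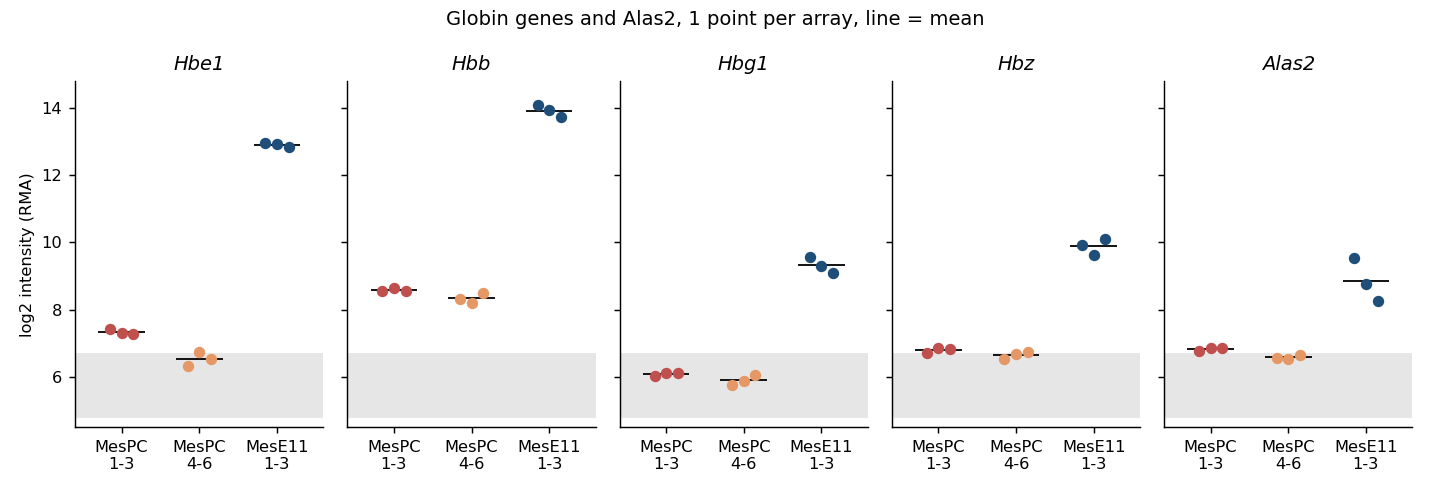
Log2 intensity of Hbe1, Hbb, Hbg1, Hbz and Alas2 on each array, with culture arrays 1 to 3 (red), culture arrays 4 to 6 (orange) and tissue arrays (blue); lines are means of each set and the grey band is the 4.80 to 6.68 read by bacterial control probe sets. Each gene's culture points lie below its tissue points, and those of Hbg1 lie inside the band.

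A further 5 probe sets were listed with 2 globin symbols each and are tied to no single gene here. The 3 alpha-like ones read 6.89 to 9.81 in culture and 12.63 to 14.16 in tissue, with differences of −7.06 to −3.46. The 2 beta-like ones read 5.58 to 5.99 in culture and 10.46 to 13.35 in tissue, with differences of −7.26 and −5.18. The culture values of the 2 beta-like ones lay within the 4.80 to 6.68 of the bacterial controls, so their falls are lower bounds if they are background. Every one of these 5 probe sets was lower on each culture array than on each tissue array, as were 23.3% of all 15866 probe sets.

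Of the other globin genes, 2 had a probe set with 1 symbol. Hba-a3, an alpha-like gene, read 8.76 to 9.08 in culture and 10.94 to 11.41 in tissue and fell by 2.19 ± 0.11 (standard error, here and below; limma, adjusted p = 3.89e-07). Hbe2, an epsilon-like gene, read 6.41 to 6.76 in culture and 6.99 to 7.22 in tissue and fell by 0.42 ± 0.09 (limma, adjusted p = 0.0041). With a random block for tissue, culture arrays 1 to 3 and culture arrays 4 to 6, the call of Hbe2 ended (adjusted p = 0.063). Among the globins of other tissues, Cygb, cytoglobin, fell by 0.89 ± 0.08 (limma, adjusted p = 2.06e-05). The other 2 of that list are named after their values were seen. The brighter probe set of Ngb, neuroglobin, differed by −0.04 ± 0.07 and Mb, myoglobin, by −0.05 ± 0.05, neither past the test. A dimmer probe set of Ngb fell by 0.31 ± 0.08 (limma, adjusted p = 0.0127).

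**Figure D2:**
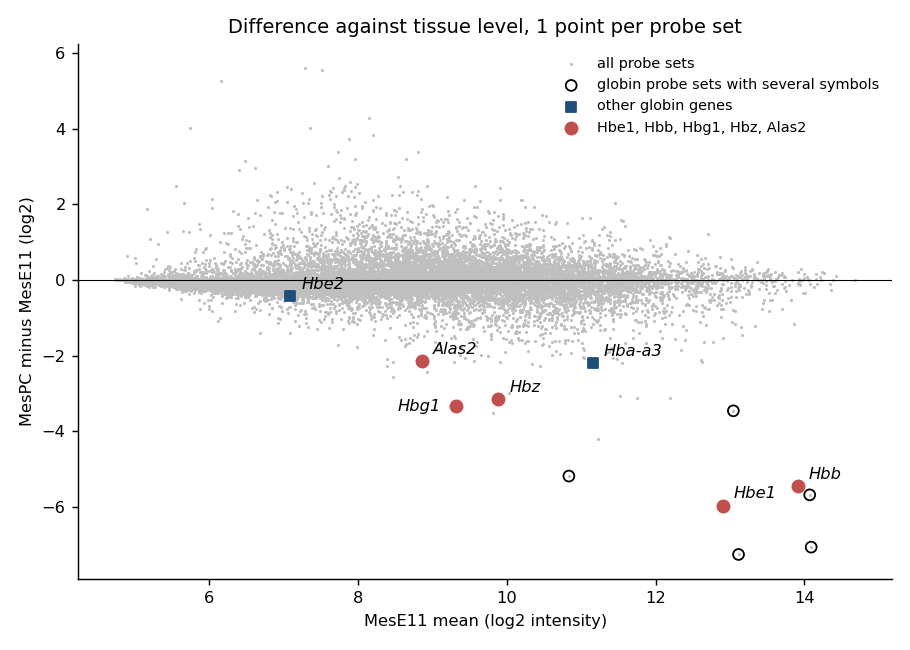
Difference of MesPC minus MesE11 (log2) against the MesE11 mean (log2 intensity) for every probe set (grey), with Hbe1, Hbb, Hbg1, Hbz and Alas2 (red), the other globin genes Hba-a3 and Hbe2 (blue squares) and the 5 globin probe sets with several symbols (open circles). The marked points lie below zero, Hbe2 the nearest to it at −0.42.

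The tissue arrays differed from each other in Alas2 more than in any other probe set. Its standard deviation over the 3 tissue arrays, 0.64, ranked 1 of 15866 probe sets, where the median was 0.0916, while its spread in culture was ordinary (0.14, median 0.115). Alas2 was highest in MesE11 replicate 1 and lowest in replicate 3, by 1.27 log2 units. Hbe1, Hbb and Hbg1 had the same highest and lowest tissue array, with ranges of 0.12, 0.35 and 0.47, as had 14.3% of all probe sets. Hbz was instead highest in replicate 3 and lowest in replicate 2, with a range of 0.50. The tissue standard deviations stood at percentile 28.3 of all probe sets for Hbe1, 88.5 for Hbb, 96.8 for Hbg1 and 97.7 for Hbz. Without MesE11 replicate 1 the difference of Alas2 was −1.81, and without replicate 3 it was −2.45.

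**Figure D3:**
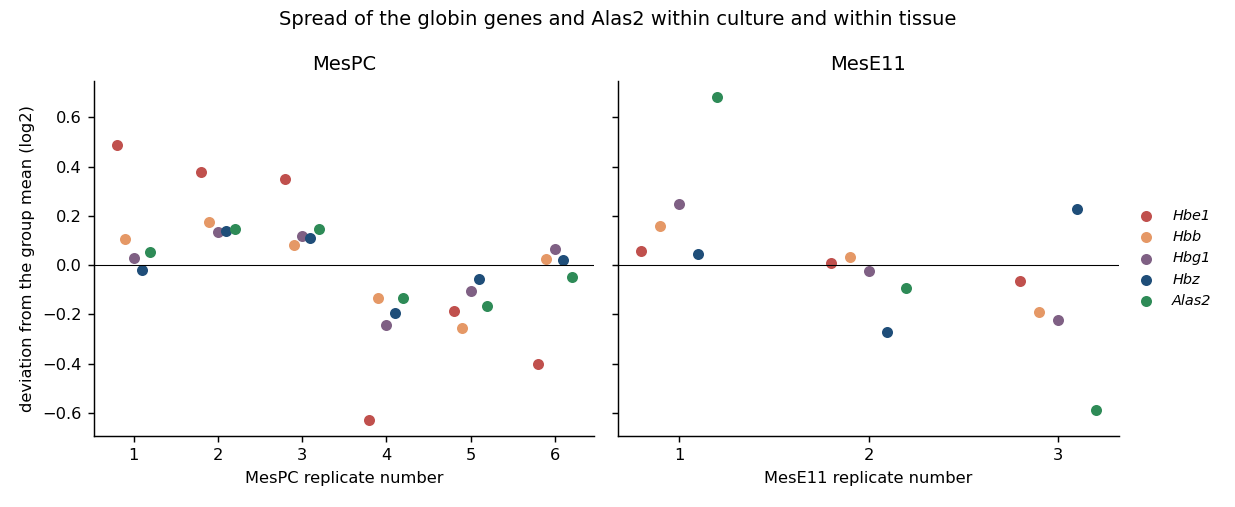
Deviation of each array from its group mean (log2) for Hbe1, Hbb, Hbg1, Hbz and Alas2, culture arrays on the left and tissue arrays on the right. Alas2 spreads most among tissue arrays and Hbe1 most among culture arrays, where arrays 1 to 3 lie above 4 to 6.

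Culture arrays 1 to 3 resembled each other, as did 4 to 6. Across probe sets Pearson's r was 0.997 to 0.998 within a set and 0.982 to 0.987 between them, and the labels name nothing that parts them. The sets are therefore described without a test. Hbe1 differed most. Arrays 1 to 3 read 7.29 to 7.42 for it, while 4 to 6 read 6.31 to 6.75, a difference of means of 0.81. Its standard deviation over the 6 culture arrays stood at percentile 96.9 of all probe sets. For Alas2 the first 3 arrays gave 6.76 to 6.85 and the last 3 gave 6.54 to 6.66. For Hbb they gave 8.54 to 8.63 and 8.21 to 8.49. For these 3 genes the sets did not overlap, arrays 1 to 3 being higher. In arrays 4 to 6, 2 of 3 Hbe1 values and all 3 Alas2 values were at or below the highest bacterial control (6.68), so their differences from arrays 1 to 3 and from tissue are lower bounds if those values are background. Hbg1 (difference 0.19) and Hbz (0.15) overlapped.

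That pattern is common at these levels. In 25.9% of all probe sets arrays 1 to 3 all lay above 4 to 6, and in 31.3% of the 5985 probe sets with a culture mean between those of Hbg1 and Hbb. The mean of arrays 1 to 3 was higher for all 5 genes and for 73.8% of those 5985 probe sets, whose median difference was 0.09. Hbe1 exceeded that median by far, while Alas2 (0.23) and Hbb (0.24) were nearer to it. After quantile normalization of the deposited values the differences were 0.73 for Hbe1, 0.24 for Hbb, 0.15 for Alas2, 0.13 for Hbg1 and 0.07 for Hbz. Against tissue, Hbe1 differed by −5.56 with arrays 1 to 3 alone and by −6.37 with arrays 4 to 6 alone.

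Genes with the most similar profile over the 9 arrays were sought among 10343 genes, which leaves out the 5 and those with a provisional LOC or RGD symbol. The 10 nearest to the mean of the 4 globins were Rgs5, Cldn5, Slc38a5, Sncg, Plin2, Hba-a3, Adcyap1, Adgrl4, Crabp2 and Ftcd, with Pearson's r of 0.994 to 0.998. Rgs5 marks pericytes, and Cldn5 is a tight junction gene of brain endothelium. Rgs5 averaged 6.12 in culture and 8.39 in tissue, and Cldn5 6.29 and 9.81. Of the others, Sncg averaged 6.72 in culture and 9.83 in tissue, Plin2 9.67 and 11.01, Adcyap1 7.32 and 8.21, and Crabp2 7.03 and 11.23. The 5 nearest to Alas2 were Nos3, Tcim, Vwf, Hba-a3 and Fibcd1, with r of 0.982 to 0.990. Nos3 and Vwf, the endothelial nitric oxide synthase and von Willebrand factor, averaged 5.13 and 6.68 in culture and 5.62 and 7.49 in tissue. Both means of Nos3 and the culture mean of Vwf lay within the 4.80 to 6.68 of the bacterial controls. All arrays share the culture to tissue difference, which carries most of each r, so these values describe a profile and have no test.

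The other enzymes of heme synthesis, which every cell needs, did not move together. Of 5 measured here, 1 was higher in culture, 1 was lower and 3 did not pass, with a median difference of 0.05, where 21.9% of all genes were called higher and 22.7% lower and their median was −0.06. Alas1, the form of the first enzyme in non-erythroid cells, read 8.81 to 9.08 in culture and 8.83 to 9.20 in tissue (−0.04 ± 0.08, limma, adjusted p = 0.736). Alad, which makes porphobilinogen, read 10.02 to 10.25 in culture and 10.34 to 10.41 in tissue and fell by 0.23 ± 0.06 (limma, adjusted p = 0.0145). Its call ended with the random block (adjusted p = 0.13), with culture arrays 4 to 6 alone (0.0521) and without MesE11 replicate 2 (0.0529). Urod, uroporphyrinogen decarboxylase, read 10.29 to 10.64 in culture and 9.87 to 10.13 in tissue and rose by 0.45 ± 0.08 (limma, adjusted p = 0.00192). Ppox and Fech, which make protoporphyrin and insert its iron, differed by 0.05 ± 0.05 and 0.06 ± 0.07, neither past the test.

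Of 9 measured genes of mitochondrial and membrane transport and iron-sulfur assembly, 3 were higher, 1 lower and 5 not past the test (median 0.04), against 21.9% and 22.7% of all genes. With the random block 2 were higher and 0 lower, against 13.2% and 9.11% of all genes. Flvcr2, a transporter of the heme exporter family, rose by 0.72 ± 0.06 (a dimmer probe set differed by −0.15 ± 0.07 and did not pass). Slc48a1, which carries heme out of lysosomes, rose by 0.70 ± 0.07. Glrx5, a glutaredoxin of iron-sulfur assembly, fell by 0.22 ± 0.06 (limma, adjusted p = 0.0169), and its call ended with the random block (adjusted p = 0.179) and without MesE11 replicate 1 (0.0774) or 2 (0.0529).

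Iron uptake and handling genes were higher in 7 of 12 cases and lower in 0, with a median difference of 0.33 and 5 higher with the random block. Among all genes 21.9% were higher and 22.7% lower, or 13.2% and 9.11% with that block. Tfrc, the transferrin receptor that brings iron into cells, rose by 1.08 ± 0.05 (limma, adjusted p = 2.92e-07), and a further probe set rose by 1.53 ± 0.07. Slc11a2, an iron importer, rose by 0.73 ± 0.06 and a further probe set differed by 0.01 ± 0.11. Aco1, iron regulatory protein and aconitase, rose by 0.55 ± 0.06. Heph, a ferroxidase, rose by 0.80 ± 0.24, with 1.20 in culture arrays 1 to 3 alone and 0.40 in 4 to 6 alone. The call of Heph ended without any 1 tissue array (adjusted p from 0.0545 to 0.0711).

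Of 6 heme breakdown genes, 2 were higher, 0 lower and 4 not past the test (median 0.06), and 2 and 0 with the random block. Of all genes 21.9% were higher and 22.7% lower, or 13.2% and 9.11% with that block. Hmox1, the inducible heme oxygenase, read 9.37 ± 0.10 in culture (SD, n = 6) and 8.09 ± 0.21 in tissue (SD, n = 3) and rose by 1.28 ± 0.09 (limma, adjusted p = 4.83e-06). Lrp1, a receptor for hemopexin among many ligands, rose by 0.57 ± 0.08 (limma, adjusted p = 0.00028).

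**Figure D4:**
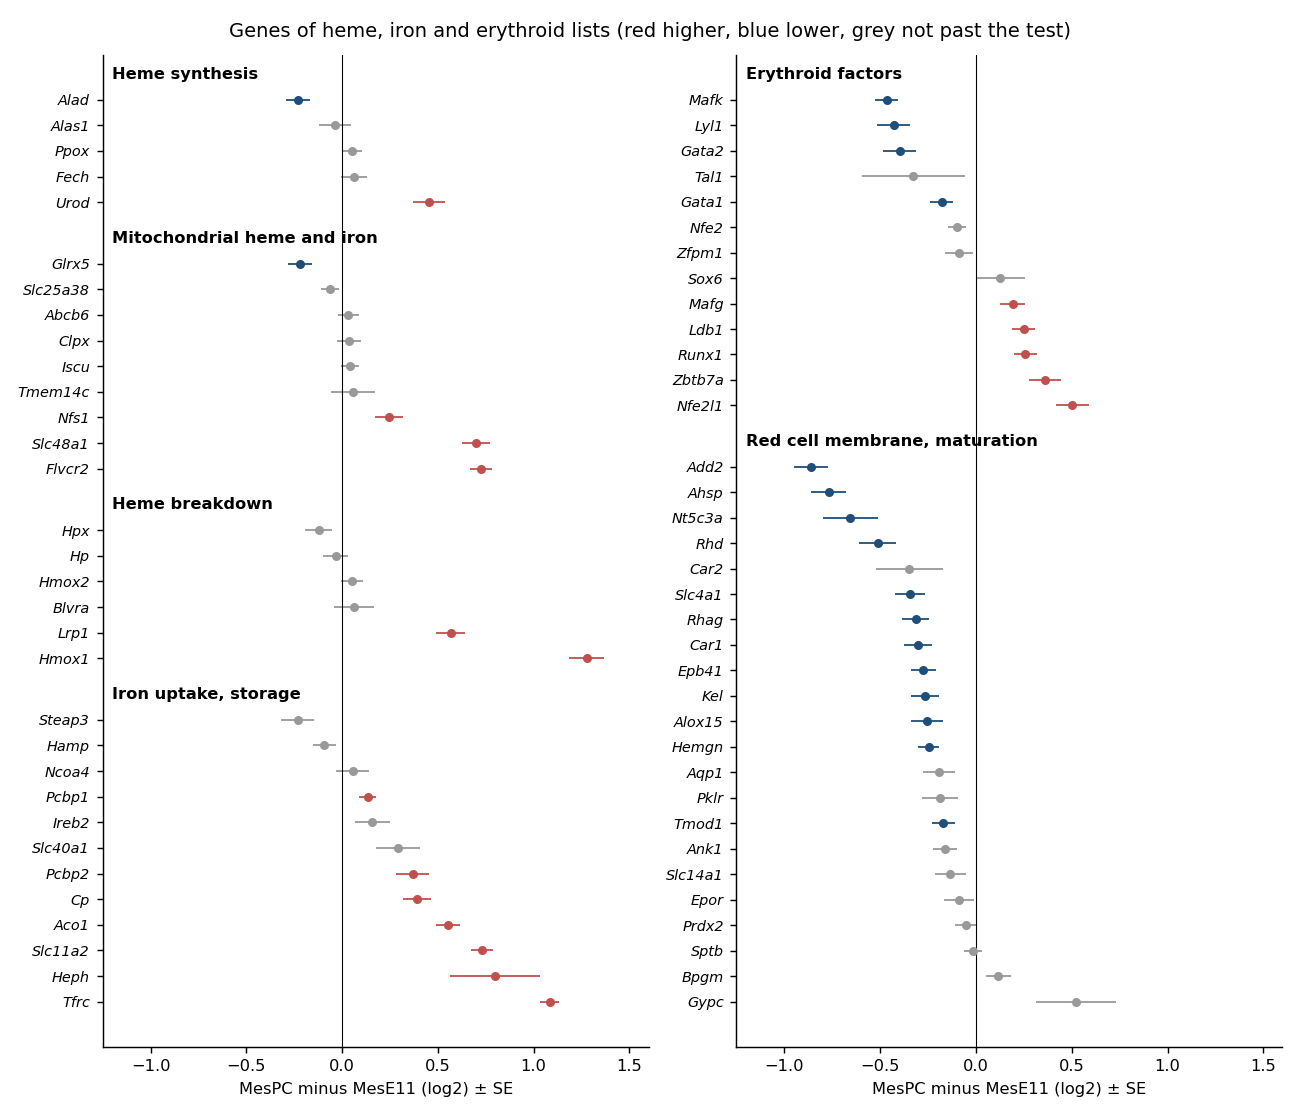
Difference of MesPC minus MesE11 (log2, point) with its standard error (bar) for each measured gene of 6 lists, coloured by limma's adjusted p at a threshold of 0.05. Tfrc (1.08) and Hmox1 (1.28) lie far to the right, and blue points fill the upper part of the red cell list.

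Genes of the red cell membrane and of erythroid maturation were lower in 12 of 22 cases and higher in 0, with a median difference of −0.25. Among all genes 22.7% were lower and 21.9% higher. With the random block 4 were lower, where 9.11% of all genes were lower and 13.2% higher, and both group means of 4 of the 22 lay at or below the highest bacterial control. Ahsp, the chaperone of free alpha globin, fell by 0.77 ± 0.09 (limma, adjusted p = 1.29e-04), and Rhd, a Rhesus blood group protein, by 0.51 ± 0.10 (limma, adjusted p = 0.00224). Add2, a membrane skeleton adducin that neurons also express, fell by 0.86 ± 0.09, and the pyrimidine nucleotidase gene Nt5c3a by 0.66 ± 0.14. Slc4a1, the anion exchanger band 3 and chosen after its values were seen, fell by 0.35 ± 0.08 on its brighter probe set and by 1.24 ± 0.06 on the dimmer one.

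Of 13 erythroid transcription factors, 5 were higher, 4 lower and 4 not past the test (median −0.09), and 1 and 1 with the random block. The shares of all genes were 21.9% higher and 22.7% lower, or 13.2% and 9.11% with that block. Mafk, a small Maf partner of erythroid NF-E2, fell by 0.47 ± 0.06, and Lyl1, a bHLH factor of blood cells, by 0.43 ± 0.09. Nfe2l1, a stress factor found in most tissues, rose by 0.50 ± 0.09 (its further probe sets differed by 0.24 ± 0.06, past the test, and 0.01 ± 0.05, not past it), Zbtb7a, a repressor of fetal globin in humans, by 0.36 ± 0.08, Runx1 by 0.26 ± 0.06 and Ldb1 by 0.25 ± 0.06. Of these 6, Lyl1, Zbtb7a, Runx1 and Ldb1 did not pass with the random block (adjusted p from 0.0644 to 0.114). Runx1 read 6.18 to 6.39 in culture and 5.95 to 6.08 in tissue, all below the highest bacterial control (6.68). Both group means of 2 of the 13 factors lay at or below that control. Gata1, the master factor of red cells and named after its values were seen, read 6.45 to 6.64 in culture and 6.64 to 6.81 in tissue and fell by 0.18 ± 0.06 (limma, adjusted p = 0.035). That call ended with the random block (adjusted p = 0.237) and after quantile normalization (0.475), and all 6 culture values were below the highest bacterial control. Klf1, which drives adult beta globin, had no probe set with its symbol alone and was not analysed here.

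Many markers of endothelium and macrophages were also lower in culture, where 22.7% of all genes were, or 9.11% with the random block. The mean of 15 endothelial markers was 7.08 to 7.34 in culture and 7.97 to 8.03 in tissue, and 11 fell, among them Cldn5 (−3.52 ± 0.09), Kdr (−1.51 ± 0.12), Ramp2 (−0.97 ± 0.09) and Tie1 (−0.87 ± 0.09). With the random block 9 endothelial markers fell, and both means of 3 of the 15 were at or below the highest bacterial control. The mean of 16 macrophage and microglia markers was 7.24 to 7.40 in culture and 7.68 to 7.72 in tissue, and 9 fell, among them C1qb (−0.78 ± 0.16), Ctss (−0.75 ± 0.08), C1qa (−0.74 ± 0.08) and C1qc (−0.61 ± 0.08). With the random block 6 fell, C1qb no longer among them (adjusted p = 0.0562). The mean of 4 platelet markers was 7.01 to 7.27 in culture and 7.45 to 7.52 in tissue, and 1 fell, Pf4 (−0.77 ± 0.07), a share near that of all genes. No marker of these lists was higher in culture, and their part in the globin values was not tested.

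The labelled tissue was checked by its markers. Beside the counts that follow, 22.7% of all genes were lower and 21.9% higher, or 9.11% and 13.2% with the random block. Of 9 ventral midbrain markers, 6 fell in culture, among them Th (−3.08 ± 0.14), Ddc (−1.93 ± 0.44; −0.21 ± 0.10 on a dimmer probe set, not past the test), Nr4a2 (−1.53 ± 0.25) and Slc18a2 (−0.84 ± 0.11). Shh (0.55 ± 0.07) and Otx2 (0.87 ± 0.15) rose, but a dimmer probe set of Otx2 fell (−0.25 ± 0.07). Of these, 5 fell and 2 rose with the random block. Foxa2, a floor plate factor named after its values were seen, averaged 9.77 in culture and 9.61 in tissue and did not pass the test (adjusted p = 0.498). Of 10 neuronal markers, 5 fell, among them Nefm (−2.05 ± 0.25) and Nefl (−1.59 ± 0.34), but 2, 3 and 2 fell without MesE11 replicate 1, 2 and 3, and all 10 with culture arrays 1 to 3 alone. The random block left 4. The mean of that list was 10.69 to 10.92 on the first 3 culture arrays and 11.88 to 11.93 on the last 3. All 9 fibroblast markers rose, Col3a1 by 5.56 ± 0.13, Lum by 5.26 ± 0.13, Col1a2 by 4.28 ± 0.10 and Col1a1 by 3.39 ± 0.13. With the random block 8 of the 9 rose, and Pdgfrb, which lost its call, had an adjusted p of 0.0606. RMA gives values relative to the other probe sets of an array, so these shifts stand beside the globin values on one scale, and their part in them was not tested.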

How the data were processed

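Per the labels' protocols, Tri-Reagent was used to extract RNA, which then took a biotin label. The authors deposited log2 values made with RMA, per the submitters' processing notes, of no stated version. Of 15923 probe sets, 57 Affymetrix controls were left out and 15866 tested. Symbols came from GEO's platform annotation: 12783 probe sets had 1 symbol, 312 several and the rest none; 12748 matched GRCr8 RefSeq genes by Entrez number, which changed 0 symbols. The brightest probe set stood for a gene.

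limma 3.58.1 in R 4.3.3 (lmFit, eBayes) compared 6 MesPC with 3 MesE11 arrays, two-sided, with Benjamini-Hochberg adjustment over all tested probe sets and a threshold of 0.05. Nothing says that the arrays are independent cultures, so a p-value here covers array-to-array spread that may be technical. On simulated arrays the fit recovered 178 of 200 planted changes, with 9 false calls among 15866 probe sets. The simulated noise was independent between arrays, without the likeness within culture sets, so that count of false calls does not carry over to these arrays. The genes and lists were chosen with earlier results of these data known, and list tests are counts in that fit. Named were all measured globin and heme synthesis genes and, per other list, up to 4 called genes without overlap with the largest difference in the commoner direction and 2 in the other, plus the nearest profiles. For the culture sets of 3 arrays no test was made. Whether the replicate numbers pair the samples is not known, and the main fit used no pairing. Alternatives were quantile normalization, centring, a filter on dim probe sets, means of probe sets, left-out arrays, a replicate block, a random block (correlation 0.447) and each culture set alone. Plots used matplotlib 3.10.9.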

Additional observations from a re-analysis of the deposited data

Results flagged for a closer look

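Of 55 genes examined over the 6 culture arrays, 2 had an array far from the others, where chance flags about 5% of groups. Hbe2 read 6.41 in MesPC replicate 5, against 6.64 to 6.76 in the other culture arrays. Pf4 read 7.19 in MesPC replicate 4, against 7.39 to 7.48 in the other culture arrays.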

How the results depend on the processing

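The falls of Hbe1, Hbb, Hbg1, Hbz and Alas2 kept their direction under every alternative that gave a value. These genes were chosen on this contrast and their groups lay apart, so that is a description and no test. The random block and means of probe sets gave the main differences again, and the replicate block gave those of culture arrays 1-3 alone. Without the dimmest 40% of probe sets Hbg1, Hbz and Alas2 were not in the fit. Hbe1 moved beyond its spread to −5.56 with culture arrays 1-3 alone and with the replicate block, and to −6.37 with arrays 4-6 alone; the difference of Alas2 between culture sets was 0.15 after quantile normalization, against 0.23. Of 3128 probe sets higher and 3565 lower in culture, the random block left 1879 and 1348, and 1936 were lower without the dimmest 40%. Leaving out 1 array gave 2241 to 3458 lower, the fewest without MesE11 replicate 3. In the red cell list 4 genes were lower with the random block and also without the dimmest 40%, where fewer genes were tested, and 1 was higher with arrays 1-3 alone and the replicate block; left-out arrays gave 0 to 1 higher. In heme synthesis 0 were lower with the random block and with arrays 4-6 alone, and 0 to 1 over left-out arrays (0 without MesE11 replicate 2). In iron handling 1 was lower with centring, with means of probe sets and with arrays 4-6 alone, and 0 to 1 over left-out arrays. The filter on the dimmest 40% also left fewer genes in other lists. It left 4 endothelial markers, all lower, and 3 macrophage markers, 1 of them lower. Of 7 erythroid factors left, 3 were higher and 1 lower. It left 0 platelet markers, so no call was possible there. Lower platelet markers numbered 2 with centring, means of probe sets, arrays 4-6 alone or without MesE11 replicate 2, lower neuronal markers 8 with means of probe sets, and lower heme and iron carriers 2 after quantile normalization and 0 with either block. The cause of the other changes was not tested.

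Deviations of arrays with the same replicate number correlated at 0.017, 0.0072 and −0.0861. Those culture deviations, taken from the mean of all 6 culture arrays, include the difference between the culture sets. Taken within culture arrays 1 to 3, the correlations were 0.0836, −0.1187 and −0.1112. Among culture arrays 1 to 3, 1 of 3 tissue arrays correlated best with the array of its own number in the first check. In the check within arrays 1 to 3 each tissue array correlated best with another number. MesE11 replicate 1 did so with MesPC replicate 3 (0.0867), replicate 2 with MesPC replicate 1 (0.0718) and replicate 3 with MesPC replicate 2 (0.2569). Weak correlations cannot settle whether the numbers pair the samples. With the replicate block on arrays 1 to 3 of both groups 3604 probe sets were higher and 3917 lower, against 3730 and 4149 without it.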

Other observations

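Behind Alas2, the named genes with the largest standard deviations among the 3 tissue arrays were Lox (0.55), a further probe set of Col1a1 (0.54), Slc4a4 (0.51), Skor1 (0.49), Fam117a (0.48) and Kifc1 (0.44). Lox, which cross-links collagen, read 5.92, 5.10 and 6.14 in MesE11 replicates 1 to 3, and the Col1a1 probe set read 7.71, 6.68 and 7.48. Both were lowest in replicate 2, whereas Alas2 was lowest in replicate 3. Slc4a4, a bicarbonate transporter, read 8.21, 8.29 and 7.37, lowest in replicate 3. They were chosen for this spread, so it is no test.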
